A study of Mus musculus with 2 samples.

Results

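Ins1, Ins2 and Iapp, 3 genes of 31053 in the deposited tables, were followed cell by cell in dispersed mouse pancreatic islets. Barcodes with at least 500 genes and at most 20% mitochondrial transcripts were taken, with no maximum of UMIs (unique molecular identifiers, 1 for each captured transcript). This rule kept 2600 of 3895 barcodes of the wild-type (WT) library and 7297 of 8951 barcodes of the high-fat diet (HFD) library. Islets came from male C57/B6 mice aged 16 weeks. From 6 weeks of age the HFD mice received, for 10 weeks, a diet in which fat gave 60% of kcal, and per the study's methods the other mice ate standard chow. Each library was made from pooled islets of 4 mice after removal of dead cells by kit, so each group was 1 library and no test between groups was possible. Intervals given here are 95% intervals that cover counting error only.

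Insulin is made by islet β cells as a preprohormone that enters the endoplasmic reticulum, folds, and is cut in secretory granules into insulin and C-peptide. Mice carry a pair of insulin genes: Ins2, the ancestral copy with an intron in its coding sequence, and Ins1, a retroposed copy that lacks that intron. Iapp encodes amylin (islet amyloid polypeptide), which is processed by the same granule enzymes and secreted with insulin. Amylin is best known as a β cell hormone, and it has also been described in δ cells.

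The 3 genes lie on different chromosomes of GRCm38 (GENCODE M21). Ins1 (ENSMUSG00000035804) spans chr19:52264297-52265476 on the plus strand, with 2 exons in its only annotated transcript. Iapp (ENSMUSG00000041681) spans chr6:142298423-142303961 on the plus strand, with 3 exons in its transcript of 839 bases. Ins2 (ENSMUSG00000000215) lies on the minus strand, and its transcript of 478 bases and 3 exons spans chr7:142678659-142679726. The gene model of Ins2 holds 9 transcripts and reaches to base 142743381. The coding sequences of Ins1 and Ins2, of 327 and 333 bases with the stop codon, were identical at 302 of 327 aligned bases (92.4%). Their longest shared run was 56 bases, and 7 of the 429 windows of 50 bases in this Ins2 transcript also occurred in that of Ins1. The last stretch of coding bases, the part of the coding sequence nearest the 3′ end that this chemistry reads, are shown because they hold both long shared runs and differing bases; the paralogs also differ elsewhere in the coding sequence and beyond the stop codon. Bases that differ between the paralogs are in capitals, and in this stretch they number 5. Reads that fall within a shared run cannot be assigned to either gene, so counts of both are uncertain to that extent.
Ins1 (chr19:52264843-52264950, plus strand): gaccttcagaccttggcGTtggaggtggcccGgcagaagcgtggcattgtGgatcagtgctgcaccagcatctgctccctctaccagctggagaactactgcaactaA
Ins2 (chr7:142678713-142678820, minus strand): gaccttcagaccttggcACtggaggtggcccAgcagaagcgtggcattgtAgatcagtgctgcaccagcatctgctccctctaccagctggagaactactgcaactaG

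The 250 bases before the start sites of Ins1 and Iapp (RefSeq, GRCm38.p6) are shown because both genes were high in the same cells. Capitals mark TAAT, the core that homeodomain factors such as PDX1 bind, and CATCTG, an E-box of the kind bound by NEUROD1, each searched on both strands. Ins1 held TAAT at 3 places and CATCTG at 1. Iapp held TAAT at 5 places, of which 1 pair overlapped, and CATCTG at 1. TAAT occurred in 54.9% of 32851 windows of this length in the table and CATCTG in 14.4%. At least 3 matches to TAAT occurred in 17.3% of windows and at least 5 in 5.54%.
Ins1 (chr19:52264047-52264296, plus strand): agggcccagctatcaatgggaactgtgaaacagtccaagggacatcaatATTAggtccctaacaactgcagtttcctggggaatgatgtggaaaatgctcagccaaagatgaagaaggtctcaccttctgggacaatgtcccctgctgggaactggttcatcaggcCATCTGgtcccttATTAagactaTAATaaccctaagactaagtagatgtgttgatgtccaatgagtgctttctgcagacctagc
Iapp (chr6:142298175-142298424, plus strand): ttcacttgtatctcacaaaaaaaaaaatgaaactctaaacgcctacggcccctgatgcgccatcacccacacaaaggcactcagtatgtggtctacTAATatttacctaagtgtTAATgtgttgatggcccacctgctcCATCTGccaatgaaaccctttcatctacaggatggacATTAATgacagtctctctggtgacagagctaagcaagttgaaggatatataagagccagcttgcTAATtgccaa

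After the barcodes with the highest doublet scores were left out, 2498 WT and 6673 HFD cells remained, with medians of 24031 and 10919 UMIs per cell. The libraries therefore differed in depth per cell as well as in diet, and the effects of depth and diet cannot be told apart. Values within ranges of depth are given below. The libraries shared 9 barcodes, 3 of them among the kept cells. Cells were clustered without the 3 genes, and the level of every other gene was scaled to the UMIs outside them, so that Ins1, Ins2 and Iapp took no part in defining a class. The β-like class held 1670 WT cells (66.9%) and 5403 HFD cells (81.0%). It comprised 7 clusters, each with all 9 fixed β markers detected, Mafa, Nkx6-1, Pdx1 and Slc2a2 among them. WT cells of the class lay mostly in clusters 3, 6 and 7 and HFD cells mostly in clusters 0, 1, 2 and 4. A further 310 WT cells (12.4%) and 440 HFD cells (6.59%) lay in 5 clusters with β markers that stayed unnamed, because genes of another class led them or their UMIs were few.

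Insulin transcripts were found in every cell, and cells fell into groups of very low and very high share. Ins1 and Ins2 together made up 56.1% of all UMIs in the WT cells and 54.8% in the HFD cells. No cell of either library lacked insulin UMIs, and the share per cell ran from 0.175% to 77.2% in WT and from 0.343% to 74.9% in HFD. In WT 528 cells were below 5%, 59 between 5% and 30%, and 1911 at 30% or above. In HFD these numbers were 804, 50 and 5819. Cells in the middle range thus made up 2.36% of WT and 0.749% of HFD cells.

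**Figure D1:**
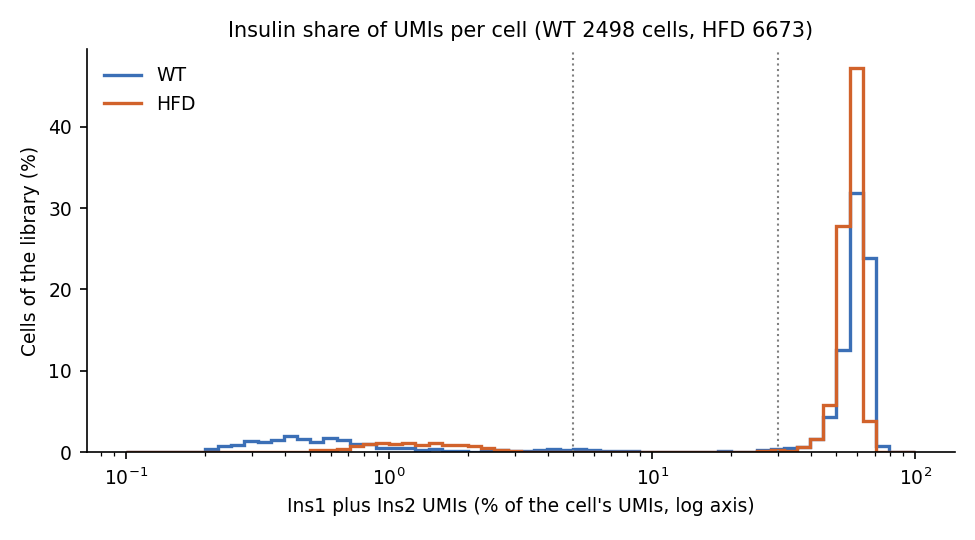
Histogram of Ins1 plus Ins2 UMIs as a percentage of each cell's UMIs (x, log axis) against the percentage of cells of the library (y), for 2498 WT and 6673 HFD cells, with dotted lines at 5% and 30%. A low and a high group stand apart in both libraries, and the low group of the HFD library lies to the right of that of the WT library.

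Ins2 was the most abundant transcript of β-like cells, Ins1 the second and Iapp the third, in both libraries. A 3′ UMI counts 1 transcript end whatever its length, so these levels were compared without scaling to length. In pooled WT β-like cells Ins2 was at 439416 CPM (UMIs scaled to a total of 1000000), Ins1 at 175212 and Iapp at 43073. In HFD β-like cells they were at 414494, 159137 and 67057 CPM. Ins2 exceeded Ins1 in 1669 of 1670 WT cells and in all 5403 HFD cells. Iapp exceeded Ins1 in 10 WT cells and 74 HFD cells, and no β-like cell lacked Iapp. In the median WT cell 5204 UMIs were Ins1, 12718 Ins2 and 1219 Iapp. In the median HFD cell 1934 were Ins1, 4900 Ins2 and 718 Iapp.

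The share of Ins1 in insulin transcripts was narrow in both libraries. Of pooled insulin UMIs, Ins1 made up 28.5% in WT (28.49% to 28.52%) and 27.7% in HFD (27.73% to 27.76%). Over WT cells the share was 28.3% ± 3.37 (SD, n = 1670 cells), with 5% of cells below 23.2% and 5% above 33.2%. Over HFD cells it was 27.6% ± 3.32 (SD, n = 5403 cells), with the same limits at 22.7% and 32.6%. Counting alone would give SDs of 0.418 and 0.594 percentage points, so the spread among cells was larger than counting error in both libraries. Thinned to 1000 insulin UMIs per cell, with 8 WT and 11 HFD cells of fewer left out, the SD beyond counting was 3.34 in WT and 3.23 in HFD. The libraries overlapped almost wholly, and 42.2% of HFD cells lay above the WT median.

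A few β-like cells had a far lower Ins1 share than the rest. The share was below 15% in 4 WT cells (0.240%) and 33 HFD cells (0.611%), and above 40% in 4 and 3 cells. Pooled over the cells below 15%, Ins1 was still at 28668 CPM (WT) and 45685 CPM (HFD), and Ins2 at 385284 and 379173 CPM. The WT cell with the lowest share, 0.905%, held 38 Ins1, 4161 Ins2 and 631 Iapp UMIs. In HFD the lowest share was 1.95%, in a cell with 31 Ins1, 1562 Ins2 and 607 Iapp UMIs. Some of these cells also held Ppy, the pancreatic polypeptide gene, whose pooled β-like level was 48.2 CPM in WT and 36.4 in HFD. The HFD cell with the lowest share had 51 Ppy UMIs of 6130, and the next had 43 of 7897. A WT cell with a share of 4.75% had 262 of 11704. The WT cell with the lowest share held 0 Ppy UMIs, as did a WT cell at 8.69%, and an HFD cell at 3.25% held 1. Ppy was thus not shared by all cells of low Ins1 share. Iapp per 100 insulin UMIs in the cells below 15% was 20.2 in WT and 18.1 in HFD, each above its library's β-like value given next. The WT value comes from 4 cells, and the one with 262 Ppy UMIs was at 58.7. These cells held fewer UMIs, with medians of 13669 in WT and 6298 in HFD against 29525 and 11873 in the others, and the part of depth in this was not tested. The only β-like cell with more Ins1 than Ins2 was a WT cell with 8528 and 8000 UMIs.

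Iapp relative to insulin differed more, both between the libraries and among cells. Pooled β-like cells held 7.01 Iapp UMIs per 100 insulin UMIs in WT (7.00 to 7.02) and 11.7 in HFD (11.68 to 11.70). The median cell was at 6.86 in WT, with 5% of cells below 4.12 and 5% above 10.6. In HFD the median was 10.6, with these limits at 6.44 and 18.1. Thus 92.5% of HFD cells lay above the WT median, and 49.95% lay above the level that 5% of WT cells exceeded. After thinning to 1000 Iapp and insulin UMIs, the coefficient of variation was 40.02% in WT and 37.9% in HFD. It was 12.8% in each library for the Ins1 share, which is bounded, unlike the Iapp ratio. Thinning left out 8 WT and 11 HFD cells with under 1000 insulin UMIs. Unthinned HFD values had an SD of 15.4 and included a few cells of very high ratio. The highest, at 1023, held 12 Ins1, 28 Ins2 and 409 Iapp UMIs, and the next, at 406, held 30, 52 and 333. Insulin made up 1.28% and 1.58% of their UMIs, near the 1.49% of the median non-endocrine HFD cell. Their ratios thus rest on insulin at the level of the background described below, and both cells were among those left out by thinning. Neither held more than 1 UMI of Sst, the somatostatin gene.

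**Figure D2:**
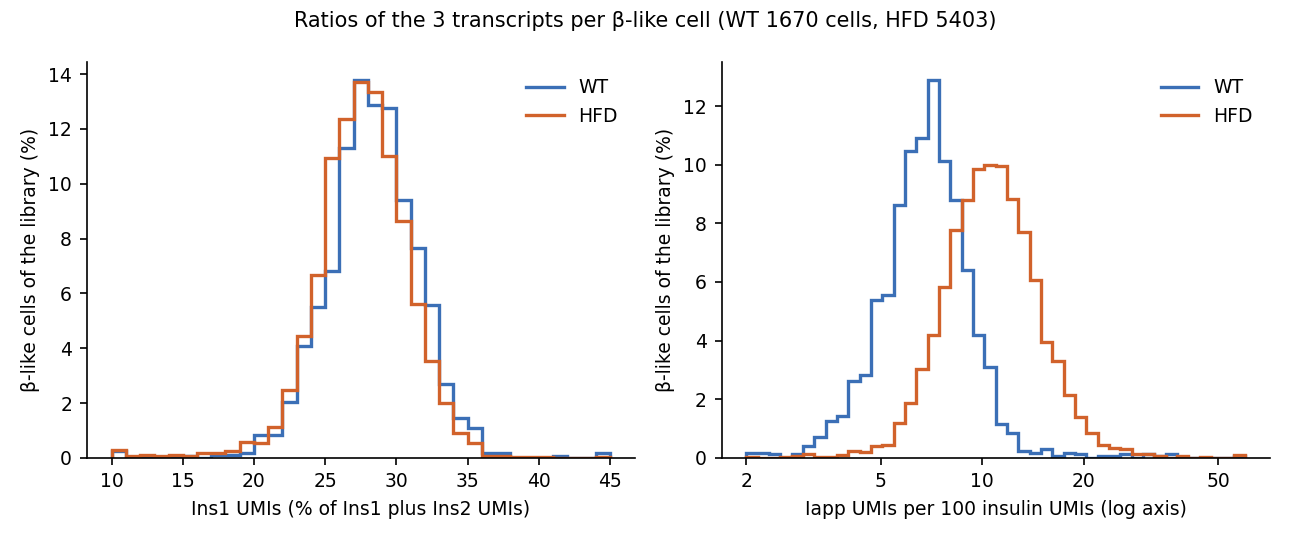
Left, histogram of Ins1 UMIs as a percentage of insulin UMIs per β-like cell. Right, histogram of Iapp UMIs per 100 insulin UMIs per β-like cell (log axis), with the percentage of β-like cells of the library on the y axes and cells beyond the drawn range in the end bins. The Ins1 shares of the libraries overlap (medians 28.3% and 27.7%), whereas the Iapp ratio of the HFD cells is shifted to the right (medians 6.86 and 10.6).

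Across β-like cells Ins1 and Ins2 went together more closely than either did with Iapp. Shares of the same total constrain each other, so levels were taken per UMI of all other genes, in log2. On that scale Pearson's r of Ins1 with Ins2 was 0.84 over 1670 WT cells and 0.82 over 5403 HFD cells. It was 0.41 and 0.39 for Ins1 with Iapp, and 0.44 and 0.42 for Ins2 with Iapp. The values of a cell share their denominator and depth, so these are descriptions. As a percentage of all UMIs, Ins2 and Iapp had an r of -0.22 in WT and -0.16 in HFD. These r values and those that follow were taken without log2. The Ins1 share was higher in cells with a higher insulin share (r = 0.40 in WT and 0.41 in HFD), whereas Iapp per 100 insulin was lower in them (r = -0.48 and -0.31). Insulin UMIs are the denominator of the Iapp ratio and the numerator of the insulin share, so a negative r is in part built in. The mitochondrial percentage moved with the insulin share (r = -0.60 in WT and -0.53 in HFD) and with the Ins1 share (r = -0.30 and -0.29), and its part in these relations was not tested.

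Cells with a high Ins1 share held more transcripts of chaperones of the endoplasmic reticulum. Cells of each library were ranked by Ins1 share and divided into 5 equal groups. The pooled share was 24.2% in WT and 23.5% in HFD in the lowest group, and 32.7% and 31.8% in the highest group. Median mitochondrial percentages were 5.30% and 4.11% in the lowest group and 2.88% and 2.73% in the highest. Of 1619 genes with enough UMIs, Nucb2, Pdia6, Gng12, Sdf2l1 and Manf ranked highest by the smaller of their correlations with the Ins1 share in the 2 libraries. Correlations were weak, between 0.26 and 0.30 in WT and between 0.19 and 0.21 in HFD. Pdia6, a disulfide isomerase, was at 6.39 per 10000 UMIs of other genes in the lowest and 13.4 in the highest group of WT cells. In HFD cells Pdia6 was at 9.17 and 14.5. Sdf2l1, a cofactor of the chaperone BiP, was at 3.06 and 8.01 in WT and at 6.19 and 10.2 in HFD. At the other end were mt-Co2, mt-Co1, mt-Atp6 and mt-Nd4, genes of the mitochondrial genome, and Mt1, a metallothionein, at 59.0 and 19.7 in WT and at 46.3 and 21.8 in HFD.

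Of the lists of pathway genes, entry into and folding in the endoplasmic reticulum went furthest with the Ins1 share. Of its 15 members 14 had a positive r in both libraries and Canx, a chaperone, a negative one (-0.083 in WT and -0.014 in HFD). The list's median r was 0.19 in WT and 0.12 in HFD beside 0.011 and 0.0098 over all 1619 genes. Of those 1619 genes, 1264 had the same sign in both libraries, whether positive or negative. The median of 14 genes of prohormone processing and granules was 0.11 and 0.073, and Vamp2 alone was negative (-0.0074 and -0.0040). Cpe, the carboxypeptidase that trims prohormones, had an r of 0.25 and 0.17. The 9 measured transcription factors of the insulin and Iapp genes had a median of 0.0078 and 0.0027, near that of all genes. For Iapp per 100 insulin, the 5 genes that ranked highest in the same way were ribosomal protein genes, Rpl32, Rpl41, Rps24, Rpl37 and Rpl11. Their values lay between 0.10 and 0.22 in WT and between 0.068 and 0.082 in HFD, where the ratio included cells of very high value. Pcsk1n, a granule protein gene, was at -0.25 in WT and -0.039 in HFD. The lowest were Ero1lb, Chga, Prss53, Cox6a2 and Trpm5, with Chga at -0.16 in WT and -0.092 in HFD and Ero1lb at -0.12 and -0.094.

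Between the libraries Iapp was higher in HFD β-like cells, and both insulin genes differed little. The log2 ratio of HFD to WT was 0.64 for Iapp (0.636 to 0.641), -0.14 for Ins1 (-0.140 to -0.138) and -0.084 for Ins2 (-0.085 to -0.083). None of the 3 genes passed a log2 ratio of 1 in either direction, which 848 of 14048 genes did (6.04%). Per 1000 UMIs of all other genes, Iapp was at 126 in WT and 187 in HFD, Ins1 at 512 and 443, and Ins2 at 1284 and 1154. Log2 ratios on that scale were 0.57, -0.21 and -0.15. With at most 15000 UMIs per barcode and clusters named anew, the sign of both insulin genes turned. It went to 0.043 for Ins1 and 0.0017 for Ins2, while Iapp stayed at 0.55. With 1 library per group the spread between mice is unknown, so none of these differences can be set against it.

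Compared within 5 ranges of UMIs per cell, Iapp remained higher in HFD in each, and more so in the deeper ranges. Its log2 ratio was 0.36 both below 5000 UMIs and between 5000 and 10000 UMIs. It was 0.63 between 10000 and 15000, 0.80 between 15000 and 30000, and 1.06 in cells with over 30000 UMIs. In WT cells Iapp per 100 insulin hardly differed over these ranges, from 6.99 to 7.71. In HFD cells it was 10.2 in the shallowest and 15.7 in the deepest range. The shallowest range held 55 WT and 163 HFD cells and the deepest 816 and 120. Depth still differed within these ranges, with medians of 2783 UMIs in WT and 3943 in HFD in the shallowest. In the deepest the medians were 43324.5 and 33057.5. Ins1 took either sign over the ranges, with a log2 ratio of -0.35 in the shallowest cells, 0.22 from 10000 to 15000 UMIs and -0.18 above 30000. Ins2 stayed between -0.077 and 0.082. Iapp was also higher in HFD within each of the 4 β-like clusters that held at least 20 cells of both libraries. There the log2 ratios were 0.27 in cluster 3, 0.37 in cluster 6, 0.25 in cluster 7 and 0.59 in cluster 2, the last with 28 WT cells. Within these clusters WT cells remained deeper, with medians from 22994 to 34132 UMIs against 7889 to 10815 in HFD.

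**Figure D3:**
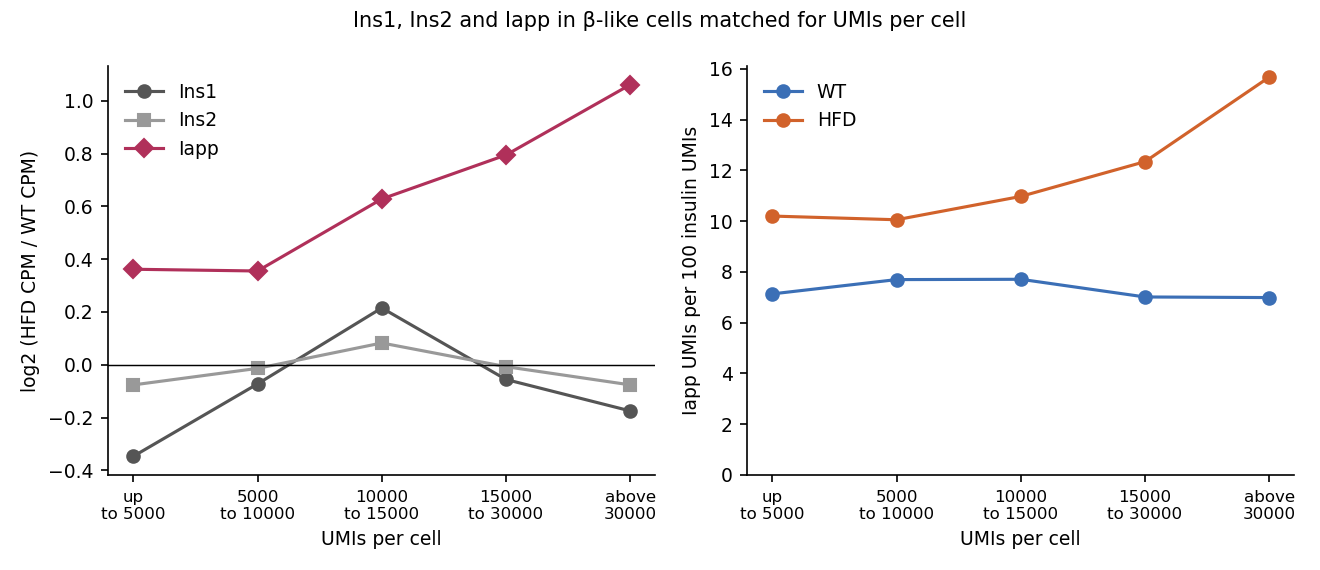
Left, log2 ratio of HFD to WT CPM of Ins1, Ins2 and Iapp in pooled β-like cells in 5 ranges of UMIs per cell. Right, Iapp UMIs per 100 insulin UMIs in each library over the same ranges. Counting intervals are not drawn. Iapp lies above 0 in every range and reaches 1.06 in the deepest, whereas Ins1 and Ins2 lie on both sides of 0.

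Genes of the pathways around insulin differed by list. All 13 transcription factors that act on the insulin and Iapp genes were lower in HFD β-like cells, with a median log2 ratio of -0.39 beside -0.0020 over all 14048 genes, and none passed a log2 ratio of 1. Mafa, a β cell activator of insulin genes, was at 318 CPM in WT and 167 in HFD (log2 ratio -0.93). Pdx1, a homeodomain regulator of both insulin and Iapp, was at 73.6 and 53.0 CPM (log2 ratio -0.48). Nkx6-1 was at 167 and 118 CPM and Neurod1 at 90.5 and 68.5. Messages of these factors came from few UMIs per cell, in contrast to the hormones, with 17414 Mafa UMIs in all 1670 WT cells.

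Genes that act after transcription were mostly higher in HFD. Of 16 genes of prohormone processing and granules, 12 were higher and 1, Vgf, passed a log2 ratio of 1, near the 6.04% of all 14048 genes. Vgf was at 6.03 CPM in WT and 17.0 in HFD (log2 ratio 1.49), from 331 and 1230 UMIs. The list's median was 0.17. Pam, which amidates peptides such as amylin, was at 107 and 165 CPM (log2 ratio 0.63), and Cpe was at 768 and 1050 (log2 ratio 0.45). The convertases differed less, with 0.091 for Pcsk1 and 0.13 for Pcsk2. Of 15 genes of entry into and folding in the endoplasmic reticulum 13 were higher and none passed, with a median of 0.27. Hspa5, which encodes BiP, was at 603 and 888 CPM (log2 ratio 0.56). Genes of at least 100 CPM in both libraries had a median of 0.20 in all, so these medians lie near that of other abundant genes. With scaling to the UMIs of other genes, 10 of 16 and 10 of 15 were higher, and the 13 transcription factors remained lower.

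Of 10 genes for receptors and degradation of insulin and amylin, 8 had enough UMIs, and none passed a log2 ratio of 1. Irs2, an adaptor of the insulin receptor, was at 71.5 CPM in WT and 36.4 in HFD (log2 ratio -0.97, and -1.04 with scaling to the UMIs of other genes, which is past 1). Insr, the receptor itself, was at 8.95 and 7.87. Ramp1, a partner of the calcitonin receptor in the amylin receptor, was at 6.93 and 11.5, and Ide, a protease that degrades insulin and amylin, at 12.2 and 18.1. The median of the 8 genes was -0.10.

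Outside the β-like class, insulin transcripts were present at a low level in every cell type. Their share of UMIs was higher in the HFD library, whose cells were shallower. Free RNA in the cell suspension can give UMIs of a gene in droplets whose cell does not express it, so these classes serve as the background for the 3 genes. The median endothelial-like cell had 0.601% insulin UMIs in WT and 1.56% in HFD. The medians of ductal-like cells were 0.371% and 0.940%, those of macrophage-like cells 0.658% and 1.64%, and those of pericyte- or stellate-like cells 0.328% and 0.763%. All non-endocrine classes together had a median of 0.482% in 363 WT cells and 1.49% in 438 HFD cells. Every endothelial-like cell held Ins2, and after thinning to 2000 UMIs 100% of 99 WT and of 41 HFD endothelial-like cells still did. Iapp was found in 88.0% of WT and 98.8% of HFD endothelial-like cells, and in 65.7% and 97.6% after thinning. Presence of a UMI therefore did not tell β-like cells from others. The share told most of them apart, with exceptions on both sides. Of 85 WT α-like cells 6 lay between 5% and 30% and 11 at 30% or above, and of 244 HFD α-like cells 10 and 6 did. At 30% or above there were also 4 WT fibroblast-like and 3 HFD ductal-like cells, and 3 HFD β-like cells were below 5%.

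A small number of non-endocrine cells held most of the insulin UMIs of these classes. In WT 9 of 363 cells were at 5% insulin or above, and they held 86.1% of the insulin UMIs of the class. In HFD 11 of 438 cells held 73.1%. Their median UMIs were 31219 and 10481, against 5801 and 2054 in the other cells, and with the highest Scrublet doublet scores kept, the pooled insulin share of the classes was 6.85% in WT and 14.0% in HFD. The pooled insulin share was 2.80% in WT and 4.04% in HFD with these cells, and 0.422% and 1.17% without them. With at most 15000 UMIs per barcode and clusters named anew, it was 0.601% and 3.25%. The share was thus higher in HFD in each of these settings. In number, the cells below 5% held 12370 insulin UMIs in 354 WT cells and 15128 in 427 HFD cells. Insulin UMIs per cell were thus similar there, and the share was higher in the shallower HFD cells. Whether the amount of free insulin RNA differed between the libraries was not tested.

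In the cells below 5% the Ins1 share was close to that of β-like cells, and the pooled Iapp ratio lay above it. Non-endocrine cells below 5% had an Ins1 share of 27.0% in WT (26.2% to 27.8%) and 27.1% in HFD (26.4% to 27.8%), beside 28.5% and 27.7% in β-like cells. They held 9.50 Iapp UMIs per 100 insulin UMIs in WT (8.94 to 10.1) and 16.0 in HFD (15.4 to 16.7), beside 7.01 and 11.7. Both intervals lie above the β-like value of their own library. In WT 7 Schwann-like cells gave 111 of the 1175 Iapp UMIs, at 70.7 per 100 insulin. With the cells at 5% insulin or above included, the ratio was 8.88 in WT and 12.2 in HFD, 1.27 and 1.04 times the β-like value. By class the ratio ran from 7.97 in macrophage-like to 8.93 in endothelial-like cells among WT classes of at least 20 cells, and from 12.9 to 16.8 in HFD. The intervals of macrophage-like cells in both libraries (6.49 to 9.70 and 11.0 to 14.97) and of HFD fibroblast-like cells (11.1 to 17.5) included the β-like value. The 5% limit was set after the distribution of shares had been seen, and it uses insulin itself.

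δ-like cells held Iapp far above this low level. Below 5% insulin, Iapp was at 24978 CPM in 52 WT δ-like cells and at 28494 CPM in 110 HFD cells, beside 401 and 1880 CPM in non-endocrine cells. That was 62.3 times the non-endocrine level in WT and 15.2 times in HFD. Insulin in the same δ-like cells was 1.58 and 1.15 times the non-endocrine level. Iapp UMIs outnumbered insulin UMIs in 46 of 52 WT cells and 91 of 110 HFD cells, and none lacked Iapp. In the median cell Iapp made up 2.11% of UMIs in WT and 2.65% in HFD, with 10% of cells below 0.870% and 1.42%. The δ-like class thus stood between non-endocrine and β-like cells, whose medians were 4.10% and 6.06%. Their Sst level was 154280 CPM in WT and 164184 CPM in HFD. Sst was among the markers from which the class was named, so this level is no separate evidence of its identity. Ppy was also at 59317 and 48578 CPM, beside 58.0 and 118 in non-endocrine cells, Ppy and Pyy were among the leading genes of the cluster, and 5 WT and 8 HFD δ-like cells of any insulin share held more Ppy than Sst or Gcg. Between the libraries, the Iapp level of δ-like cells differed less than that of β-like cells (43073 and 67057 CPM). These δ-like cells were shallower, with medians of 7082 and 2798.5 UMIs against 29456 and 11824. In β-like cells below 5000 UMIs the log2 ratio of Iapp was 0.36, beside 0.64 in all of them. The part of depth in this contrast was not tested.

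α-like cells were mixed. Pooled Iapp below 5% insulin reached 3389 (WT) and 4856 CPM (HFD), 8.45 and 2.58 times the non-endocrine level, whereas insulin was 0.990 and 0.814 times it. The median cell was lower, with 0.0684% in 68 WT cells and 0.201% in 228 HFD cells, beside 0.0378% and 0.206% in non-endocrine cells. A minority was higher, with 10% of cells above 0.578% and 1.24%. Iapp exceeded insulin in 12 WT and 36 HFD cells of the class. γ cell genes such as Ppy and Pyy were among the leading genes of the α-like cluster, so these cells were divided by the most abundant of Gcg, Ppy and Sst. In WT 51 cells with most Gcg had a median of 0.0667% Iapp and 15 with most Ppy 0.0725%. In HFD 194 cells with most Gcg had 0.212% and 33 with most Ppy 0.163%. The 2 WT cells and the 1 HFD cell with most Sst were at 1.70% in the median and 4.77%. Both WT medians were above the non-endocrine median, and the HFD medians lay on either side of it. The upper 10% began at 0.483% and 0.498% in these WT cells and at 1.19% and 2.14% in these HFD cells.

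**Figure D4:**
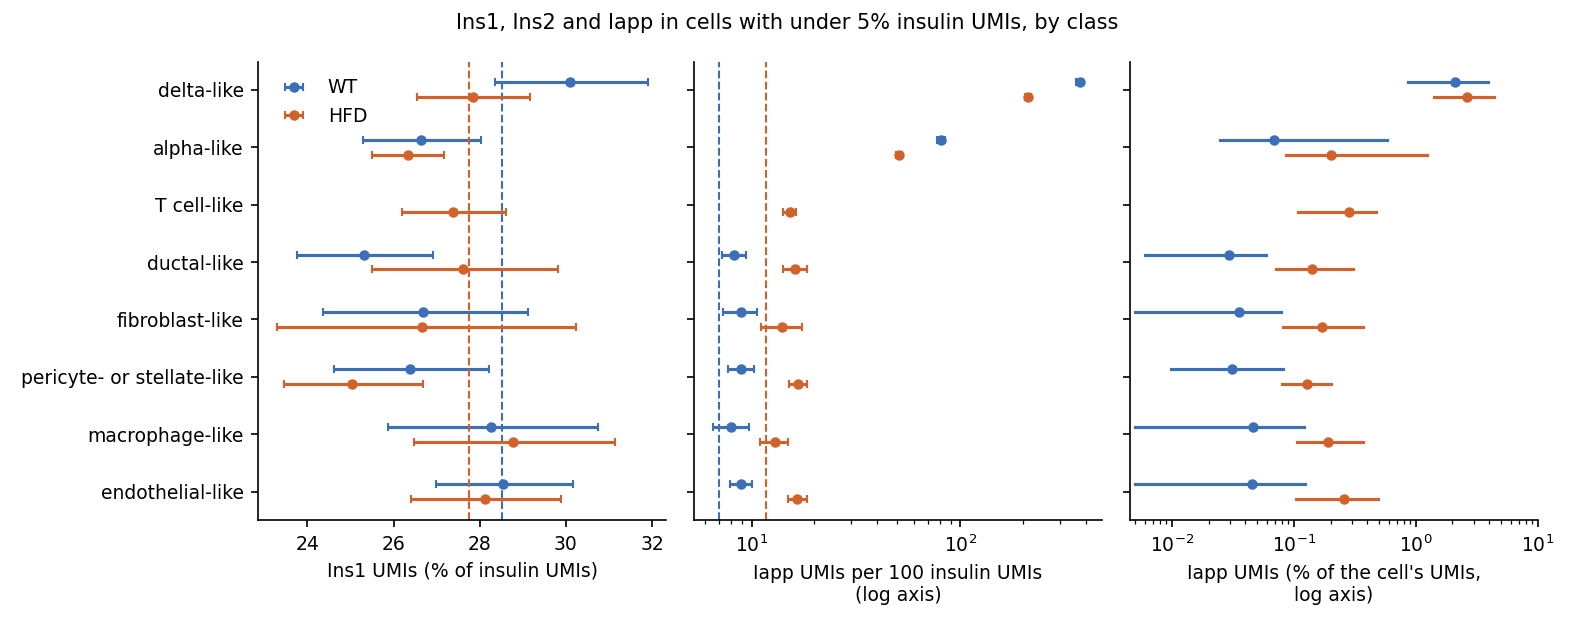
Cells with under 5% insulin UMIs in named classes of at least 20 such cells; unnamed clusters are left out. Left, Ins1 as a percentage of insulin UMIs; middle, Iapp UMIs per 100 insulin UMIs (log axis), both pooled with 95% counting intervals and with dashed lines at the β-like value of each library; right, Iapp as a percentage of the UMIs of a cell (log axis), median and 10% to 90% range, with lower ends at 0 drawn at the left edge. Ins1 shares lie between 25.04% and 30.1%, and δ-like cells stand apart in Iapp, with 374 per 100 insulin UMIs in WT and 212 in HFD.

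A cluster of cells that held both insulin and other islet hormones stayed unnamed. It had 180 WT and 308 HFD cells with medians of 39630 and 15364 UMIs, above those of β-like cells, and Rbp4, Sst, Pyy and Ppy led it. Insulin made up 52.3% of its UMIs in WT and 49.95% in HFD. Sst was at 11193 CPM in WT and 11465 in HFD, beside 12.8 and 21.2 in β-like cells. Iapp per 100 insulin was 9.31 in WT and 13.1 in HFD, between the values of β-like and δ-like cells, and the part of Ins1 in its insulin transcripts was 26.7% and 26.5%. Whether these are single cells or doublets of β and other cells was not tested.

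Other unnamed clusters with insulin differed in Iapp. A cluster of 50 WT cells with a median of 3561 UMIs had 68.2% insulin UMIs and 5.31 Iapp UMIs per 100 insulin. A cluster of 45 HFD and 2 WT cells, led by Malat1 and mitochondrial genes, had 55.9% insulin in HFD and only 4.94 Iapp UMIs per 100 insulin. A cluster of 87 HFD and 5 WT cells led by acinar genes had 10.6 in HFD, near the β-like value. In 73 WT cells of low depth, with a median of 1187 UMIs, insulin made up 5.90% of UMIs and the Ins1 share was 34.9%. In its 38 cells below 5% insulin it was 35.6% (33.3% to 37.8%). The share was the highest of the clusters and classes of at least 20 cells in WT.

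Over 8 classes of at least 20 cells in both libraries, 16 values in all, the level of Ins1 followed that of Ins2 most closely of 4988 genes (Pearson's r = 0.998 on log2(CPM + 10)). These points share libraries, and the β-like class sets most of the range. In the non-endocrine classes, UMIs of both insulin genes can come from free RNA or from a few cells of high insulin share. A common source would keep both genes in a fixed ratio. A high r of this pair could arise from that alone, which was not tested. Next for Ins1 came AC078895.1, Ucn3, Prss53 and Prlr, with r from 0.93 to 0.95. Ucn3 encodes urocortin 3, a peptide of mature β cells, and Prlr the prolactin receptor. For Iapp the nearest were Scg2, Spcs3, Ppp1r1a, Chga and Syt4, with r from 0.92 to 0.96. Scg2 and Chga encode granins, which are present in granules of several islet cell types. Ins1 and Ins2 were in places 18 and 13 of the genes nearest to Iapp, with r of 0.88 and 0.89.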

How the data were processed

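Single-cell RNA was measured in 2 libraries of mouse islets. Per the labels and the study's methods, the authors obtained the deposited counts of UMIs from Cell Ranger, v3.0.2, run on mm10. They were raw and held up to 102585 UMIs in a β-like cell. The 3 genes, the lists, the markers and the rules were chosen with earlier results of these data known.

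Barcodes with at least 500 genes and at most 20% mitochondrial UMIs were kept. Scrublet (scanpy v1.11.5) called 12 WT and 0 HFD barcodes at its automatic threshold, too few to be used. The highest scores were left out instead, 0.8% per 1000 barcodes, which removed 102 and 624 of the kept barcodes. Genes in at least 15 cells were scaled to 10000 UMIs outside Ins1, Ins2 and Iapp and square-root transformed. The 2000 most variable genes without the 3, Gcg, Sst, Ppy and Cck gave 50 components, 15 neighbours and Leiden clusters (leidenalg v0.10.2) at resolution 1. Classes were named from marker lists, and the scoring was settled after clusters had been seen: a marker counted if found in at least 10% of cells, at 0.5 per 10000 UMIs and at 2 times its level in other classes, a name needed 3 markers, and the 10 leading genes were taken from those in at least 25% of cells. A cluster whose median cell held under 0.2 of its mean marker level was split in 2.

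UMIs were summed per class and library. Shares have Clopper-Pearson intervals, CPM exact Poisson and ratios exact conditional intervals (scipy v1.17.1). PCR and capture errors are not covered. No test was made, since each group was 1 library, and cells are not replicates. Log2 ratios used genes with at least 10 UMIs. Named genes were the 3, members of the lists, the 5 nearest over classes, and the 5 highest and lowest over cells among genes with a mean of at least 0.5 UMI. Intervals and the SD beyond counting were tested on simulated data. Alternatives were a maximum of 15000 UMIs, doublet scores kept, at least 1000 genes, at most 10% mitochondrial UMIs, resolution 2 and another scaling. The promoter of Ins2 and the proteins were not used here. Only these 2 libraries were used.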

Additional observations from a re-analysis of the deposited data

Results flagged for a closer look

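Barcodes left out by the filters also held insulin. In the 1123 HFD barcodes above 20% mitochondrial UMIs, insulin made up 8.75% of UMIs (8.70% to 8.81%), more than the 4.04% of non-endocrine HFD cells, with a median of 740 UMIs per barcode. The 1009 such WT barcodes held 5.07% insulin UMIs. Iapp per 100 insulin was 11.0 in the HFD and 8.01 in the WT barcodes. The value stood out because these barcodes entered no comparison.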

How the results depend on the processing

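The order of the genes was Ins2, Ins1, Iapp in the reported setting, and Iapp was higher in HFD under every alternative run. With 1 library per group, values were set against counting intervals alone, which are so narrow that 39 of 57 recomputed values moved beyond them and 2 changed sign. No paired analysis was possible because no test was made and each group held 1 library.

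With at most 15000 UMIs, which left 213 WT and 3708 HFD β-like cells, the Ins1 share was 27.4% in WT and 27.9% in HFD, Iapp per 100 insulin 7.29 and 10.6, and the non-endocrine insulin share 0.601% and 3.25%. The log2 ratios were 0.043 for Ins1 and 0.0017 for Ins2, both reversed, and 0.55 for Iapp; the interval of Ins2, -0.0018 to 0.0054, includes 0. With the highest Scrublet scores kept, these values were 28.5% and 27.7%, 7.03 and 11.7, 6.85% and 14.0%, with log2 ratios of -0.14 for Ins1 and -0.082 for Ins2. With at least 1000 genes the Ins1 share was 28.5% in WT, the non-endocrine share 2.52% and 4.71%, and the log2 ratio of Ins1 -0.14. With at most 10% mitochondrial UMIs the Ins1 share was 28.5% and 27.8%, Iapp per 100 insulin 11.7 in HFD, and the log2 ratios -0.14 for Ins1, -0.087 for Ins2 and 0.63 for Iapp. At resolution 2 Iapp per 100 insulin was 11.7 and the non-endocrine share 4.28%, both in HFD. With scaling to other genes the log2 ratios were -0.21 for Ins1, -0.15 for Ins2 and 0.57 for Iapp.

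Chosen after seeing the data, leaving out cells at 5% insulin or more gave non-endocrine shares of 0.422% and 1.17%. Counting the unnamed clusters with β markers as β-like gave an Ins1 share of 28.3% and 27.7%, Iapp per 100 insulin of 7.23 and 11.7, and log2 ratios of -0.12 for Ins1, -0.072 for Ins2 and 0.61 for Iapp. The cause of these shifts was not tested. The depth of the HFD cells limits statements on genes of few UMIs per cell.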
